A study of Mus musculus with 26 samples.

Results

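Gene expression in mouse motor neuron spheroids kept in medium labelled high intensity was compared with that in biochemical controls, using 4 high-intensity libraries (replicates 1, 2, 3 and 6) and 5 control libraries (replicates 1, 2, 3, 5 and 6), 9 of the 26 libraries of the series. They are the libraries of these groups with at least 1000000 counts on protein-coding genes. High-intensity replicates 4 and 5 and control replicate 4 fell below that limit, with 243510, 495044 and 1457250 counts in all, and were set aside. All spheroids came from HBG3, 1 mouse embryonic stem cell line with an HB9::GFP reporter (genotype label: heterozygous blastocysts), whose green fluorescence follows HB9, the motor neuron transcription factor encoded by Mnx1. The cells had been grown on a feeder layer with LIF, then differentiated with retinoic acid and puromorphamine (as the labels spell it, an activator of hedgehog signalling), with ciliary and glial cell line-derived neurotrophic factors from day 5, and seeded as spheroids on fibrin at about day 8. In the biochemical arm the medium carried myokines, proteins that muscle releases. The design text describes medium taken from optogenetic muscle that was stimulated at 1 Hz for 30 min or left unstimulated, and its sample names differ from those in the labels, which speak of intensity only. Which intensity had medium from stimulated muscle is therefore not known here. The medium of the controls is not described. The low-intensity group (5 libraries over the same limit) is set beside the high-intensity group where a value needs it.

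A motor neuron spheroid is a ball of differentiating cells that holds motor neurons together with other derivatives of the stem cells: interneurons, glia, dividing progenitors and some mesenchymal cells. Contracting muscle secretes growth factors and extracellular matrix proteins that motor axons meet at the neuromuscular junction, and in culture axons extend on matrix proteins such as laminins and fibronectin, which they bind through integrins. Neurons leave the cell cycle when they are born, so transcripts of the mitotic and replication machinery are often taken as a sign of cells that still divide. Which cells they came from was not tested here. In RNA from whole spheroids, a smaller number of cells of a type and less RNA per cell cannot be told apart.

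The 9 libraries held 2273487 to 3771637 counts in the controls and 2408099 to 3971348 at high intensity, and levels are given in CPM, counts scaled to a library of 1000000. With no count of a gene, its level could still be as high as 0.795 to 1.32 CPM in a control and 0.755 to 1.25 CPM at high intensity (3 counts, counting error only). Nothing in the labels says whether replicates were separate differentiations, so p-values measure only the spread between samples. For the edgeR p-values that spread was estimated over the 21 libraries of all 5 groups, not over these 9 alone. High-intensity replicate 3 stood apart: it held 647 counts of Xist (253 CPM), the RNA that coats an inactive X chromosome, while the other 8 libraries held 0 to 11 counts. Low-intensity replicates 1, 2 and 5 held 383, 105 and 422 counts. Counts on Y-linked genes were 0 in every one of these libraries except for 1 count in control replicate 3. For the genes whose log2 fold change fell most when high-intensity replicate 3 was left out, and for the main lists, values are given with and without it. Genes of motor neurons were present in both groups. Mnx1 was at 10.6, 10.9, 5.00, 6.55 and 8.70 normalised CPM in the controls and 3.78, 17.8, 2.45 and 9.64 at high intensity, and the log2 difference of −0.01 ± 0.47 (SE) had an edgeR adjusted p of 0.997. Isl1, another motor neuron transcription factor, had a mean of 14.4 ± 8.18 CPM (SD) in the controls and 8.84 ± 4.99 at high intensity (edgeR adjusted p = 0.559), and Chat, the enzyme that makes acetylcholine, 11.3 ± 4.41 and 9.66 ± 3.58 (edgeR adjusted p = 0.795).

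At an adjusted p under 0.05, 68 of 14730 genes (0.462%) differed between high intensity and control, 45 higher (0.305%) and 23 lower (0.156%), by edgeR's quasi-likelihood test with Benjamini-Hochberg adjustment. Mki67, Top2a and other genes of cell division and the matrix genes Lamc1 and Mmp2 were among those higher, and genes of synaptic terminals and neuronal microtubules among those lower. The adjusted p values lay close to the threshold, between 0.0357 and 0.0496, and the number of calls depended on single libraries. It was 0 when high-intensity replicate 1 or 3 was left out, and also without replicate 1 of the actuated or of the static array, 2 other conditions of the series that share the estimate of spread. It was 1 without high-intensity or static-array replicate 2, 2 without control replicate 3 or 5, 18 without control replicate 2, and 17 and 16 without actuated-array replicates 2 and 4. It was larger without low-intensity replicate 3 (107), control replicate 6 (125) and high-intensity replicate 6 (397). DESeq2 called 467 of the 14730 genes, among them all 68, and limma with quality weights (voom) called 0. The counts of list members called by DESeq2, given below, are to be read beside those 467 of 14730. Without high-intensity replicate 3, all 68 genes had a log2 fold change of the same sign, and in 55 of them the other 3 high-intensity libraries lay wholly outside the range of the controls. Over all genes fitted, 2.78% lay wholly above and 1.98% wholly below in those libraries. With all 4 high-intensity libraries the groups likewise did not overlap in 55 of the 68, against 2.07% (above) and 1.49% (below) of all genes. The 68 were called on these same values, so these counts describe them and test nothing.

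**Figure D1:**
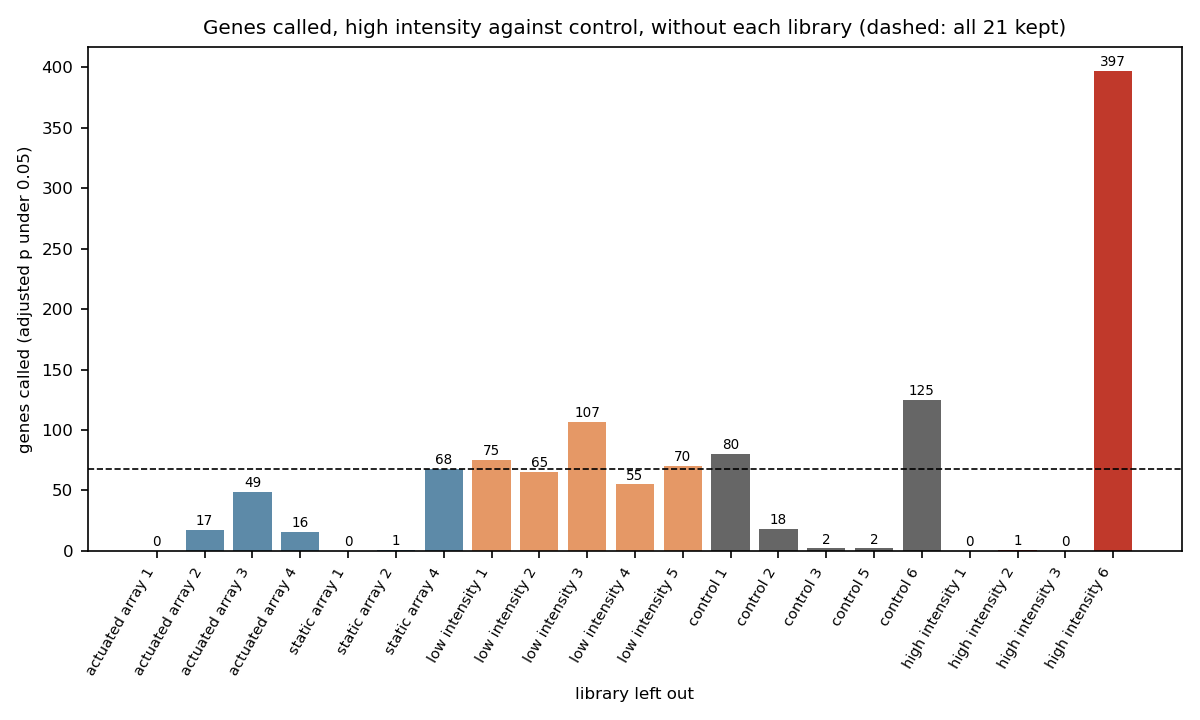
Number of genes called between high intensity and control (vertical axis, edgeR adjusted p under 0.05) when each of the 21 libraries in the model is left out in turn (horizontal axis); the dashed line marks the 68 called with all of them. The count is 0 without high-intensity replicate 1 or 3 and 397 without replicate 6.

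Mki67 (ENSMUSG00000031004), which encodes the Ki-67 protein of dividing cells, was at 133, 114, 113, 102 and 133 normalised CPM in the controls and at 273, 236, 499.5 and 174 in the high-intensity libraries. Every high-intensity library lay above every control, with replicate 3 far above the rest. On the log2 scale it was higher by 1.31 ± 0.26 (SE; adjusted p = 0.0364, edgeR), and by 0.93 without replicate 3. Top2a (ENSMUSG00000020914), the topoisomerase that untangles replicated chromosomes, was at 58.4, 41.7, 65.4, 54.8 and 74.8 CPM in the controls and at 119, 92.8, 272 and 101 at high intensity. Again the groups did not overlap, and the log2 fold change of 1.30 ± 0.29 (edgeR adjusted p = 0.0448) was 0.82 without replicate 3. Bub1b (ENSMUSG00000040084), a kinase of the spindle checkpoint, had control values close together, at 10.1, 8.76, 9.998, 8.89 and 9.27 CPM, against 36.6, 18.6, 71.5 and 23.4 at high intensity. Its log2 fold change was 1.99 ± 0.39 (edgeR adjusted p = 0.0357), and 1.49 without replicate 3.

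Other called genes of division rose with them. Zwilch, a kinetochore protein, went from 2.41 ± 1.03 to 9.94 ± 4.27 CPM (SD, n = 5 and 4), and Kif15, a spindle kinesin, from 6.82 ± 2.55 to 22.6 ± 11.3. For Kif15 the log2 fold change was 1.70, and 1.33 without replicate 3. Polq, a DNA polymerase that joins broken ends, was at 2.30, 5.96, 5.00, 5.62 and 4.06 CPM in the controls and 17.4, 12.6, 14.3 and 11.3 at high intensity. Here replicate 3 was not the highest, and the log2 fold change was 1.61 with all 4 libraries and 1.60 without replicate 3. H2ac10 and H2ac15, replication-dependent H2A histones made in S phase, had log2 fold changes of 3.59 ± 0.66 and 1.60 ± 0.36, or 3.14 and 1.33 without replicate 3. H2ac10 was at 0, 4.21, 0.769, 0.468 and 1.16 CPM in the controls and 13.1, 9.73, 29.8 and 12.4 at high intensity, so its control level was near the limit of detection in 4 of 5 libraries. Histone genes are near-identical copies, and how the authors' counting divided reads among them is not given in the sources used here. Cchcr1, a protein of centrioles and processing bodies, rose from 4.85 ± 1.99 to 14.7 ± 2.84 CPM. Of the genes outside the rule for naming, chosen after their values were seen, Pclaf (a partner of the replication clamp) had 1.15, 2.45, 1.54, 1.40 and 4.64 CPM in the controls and 10.8, 9.73, 13.1 and 9.09 at high intensity. Knl1 and Cenpe (kinetochore), Rrm1 (ribonucleotide reductase) and Tfdp2 (a partner of E2F factors), likewise chosen after the fact, had log2 fold changes of 1.95, 1.37, 1.04 and 1.28, and in the first 3 the ranges of the groups overlapped. Without replicate 3 the values were 1.35, 1.14, 0.76 and 1.24.

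The list of 25 cell cycle and replication genes was fitted whole. Mki67 and Top2a were called, 24 members had a log2 fold change above 0 (50.3% of all genes did), 19 had an unadjusted p under 0.05 in that direction (8.67% of all genes), and in 7 the high-intensity libraries lay wholly above the controls (2.07% of all genes). The median log2 fold change was 1.29, against 0.00 over all genes, and 0.73 without high-intensity replicate 3. Summed over the list, the level was 548, 497, 629.9, 538 and 643 normalised CPM in the controls and 1006, 871, 1880.0 and 734 at high intensity, with no overlap and with replicate 3 highest. Xist and this sum were both highest in the same library of the 9, and the part of that library's difference in the result was not tested beyond leaving it out. In the low-intensity libraries the sum was 1324, 868, 586, 738 and 1257, and the largest 2 values belonged to replicates 1 and 5, which also held the most Xist counts of that group. The sum was 705 to 984 in the static array and 692 to 946 in the actuated array, above every control as well. A rise over these controls is therefore not particular to the high-intensity medium, and its cause was not tested. Bub1, with the smallest p of the members that were not called, had 3.06 ± 0.71 on the log2 scale (edgeR adjusted p = 0.051). DESeq2 called 10 members of the list (467 of all 14730 genes). Of 55 fitted replication-dependent histone genes (57 in the list), 2 were called, 50 had a log2 fold change above 0, and the median was 0.99, or 0.33 without replicate 3.

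The promoters of these genes were read because their genes moved together and because promoters of many mitotic genes carry 2 short elements, the cell cycle gene homology region (CHR, TTTGAA) and the CCAAT box (CCAAT), bound by the DREAM or MuvB complexes and by NF-Y. The 120 bases before the start site are shown for 4 of the called genes, 5′ to 3′ on the gene's strand, from RefSeq (GRCm38.p6), with either element on either strand in capitals (TTCAAA and ATTGG are the reverse complements). They show 2 copies of the CHR without a CCAAT box, both elements, and paired CCAAT boxes without a CHR.
Mki67, chr7:135716380-135716499, minus strand: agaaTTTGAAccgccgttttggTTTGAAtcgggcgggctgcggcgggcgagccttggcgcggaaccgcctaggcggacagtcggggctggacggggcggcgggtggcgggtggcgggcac
Top2a, chr11:99024190-99024309, minus strand: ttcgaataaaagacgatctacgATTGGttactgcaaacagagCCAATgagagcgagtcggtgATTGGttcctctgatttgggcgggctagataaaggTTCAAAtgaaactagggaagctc
Pclaf, chr9:65890203-65890322, plus strand: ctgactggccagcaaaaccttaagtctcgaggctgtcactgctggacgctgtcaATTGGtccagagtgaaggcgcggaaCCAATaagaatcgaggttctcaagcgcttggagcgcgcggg
Rrm1, chr7:102441575-102441694, plus strand: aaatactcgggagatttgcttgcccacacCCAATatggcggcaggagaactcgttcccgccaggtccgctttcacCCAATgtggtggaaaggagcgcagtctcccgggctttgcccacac
The 4 shown are those that held at least 2 copies of these elements. In the same 120 bases, Bub1b and Cenpe held 1 CCAAT box each, Kif15 held 1 CHR, and Knl1 and Polq held neither element. Promoters were found for 31 of the 45 higher genes (35 promoters) and 15 of the 23 lower genes (18 promoters), and the 250 bases before each start were searched on both strands. The CCAAT box was in 85% of the 20 promoters of the cell cycle list, 42.9% of those of higher genes and 11.1% of those of lower genes, against 35.5% of promoters of all genes fitted and 33.8% of all 32851 promoters. The CHR was in 30%, 22.9% and 16.7%, against 10.4% and 16%. A form of the E2F element (TTTNNCGC, where N is any base) was in 20% of the cell cycle list and 17.1% of higher genes, against 6.81% of genes fitted, and in 0 of 18 promoters of lower genes. The TEAD element (GGAATG) was in 8.57% of promoters of higher genes, against 10.7% of genes fitted, and the AP-1 element (TGANTCA) in 0 of 35, against 4.32%. These are counts of letters in a window and say nothing of binding.

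**Figure D2:**
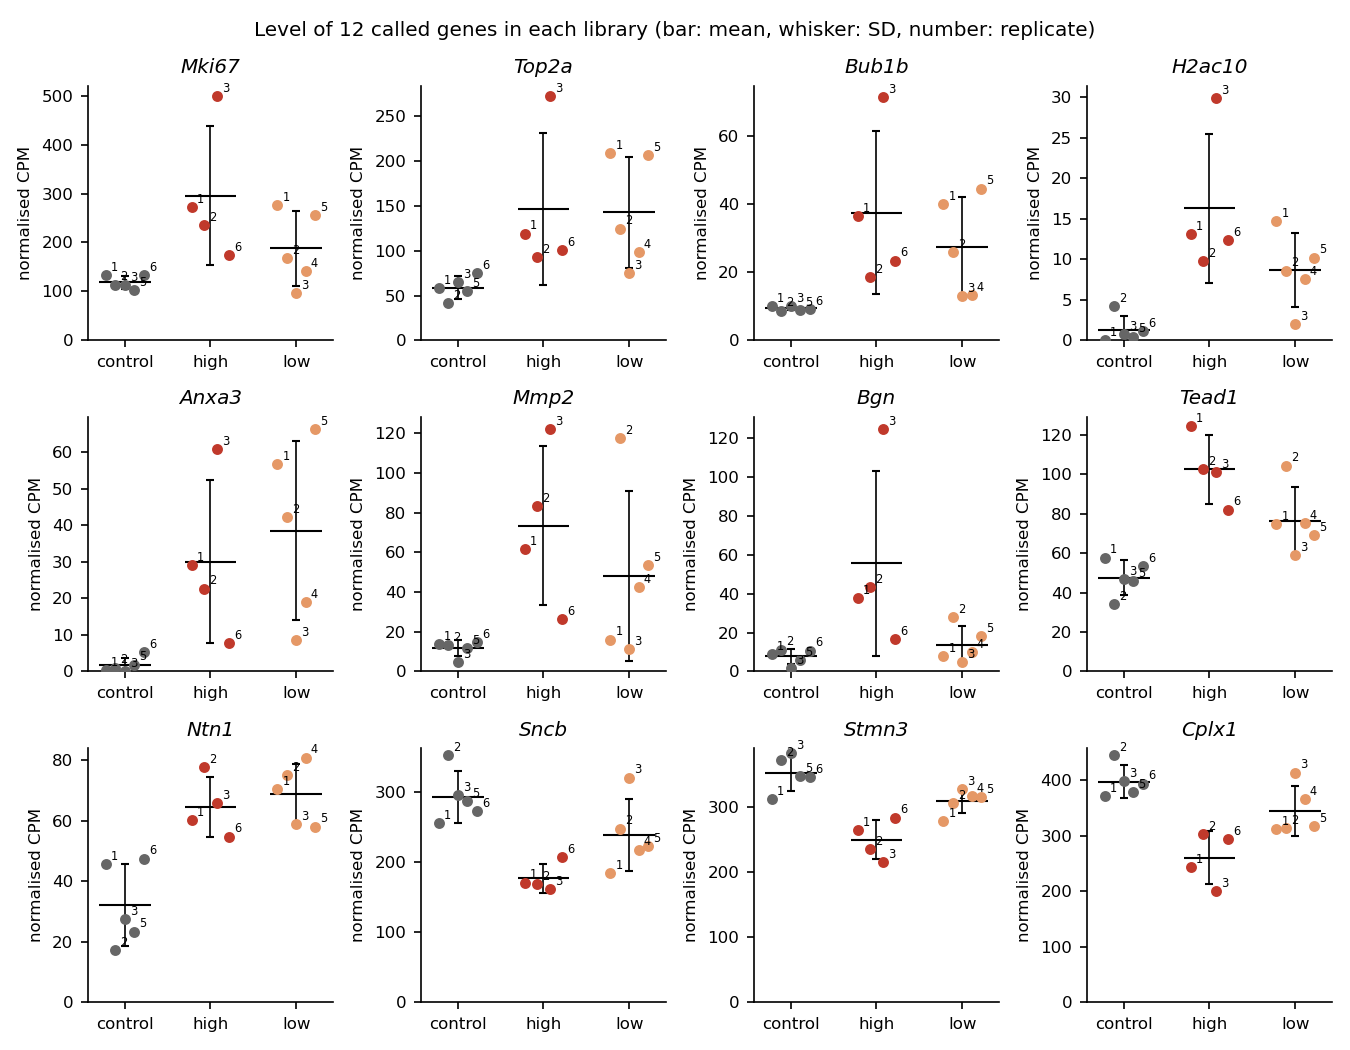
Normalised CPM (vertical axes, from 0) of 12 called genes in each control, high-intensity and low-intensity library, with the replicate number beside each point, the mean as a bar and the SD as a whisker. High-intensity replicate 3 is the highest library for Mki67, Top2a and Bub1b, while Tead1 and Ntn1 are higher in all 4 high-intensity libraries without it standing apart.

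Extracellular matrix was the next group. Mmp2 (ENSMUSG00000031740), a secreted protease that cleaves basement membrane collagen, was at 13.8, 13.3, 4.61, 11.7 and 14.8 normalised CPM in the controls and 61.5, 83.1, 122 and 26.4 at high intensity. The high-intensity libraries all lay above the controls but spanned a wide range, from replicate 6 to replicate 3. The log2 fold change was 2.63 ± 0.60 (edgeR adjusted p = 0.0468), and 2.27 without replicate 3. Lamc1 (ENSMUSG00000026478), the γ1 chain shared by most laminins, was at 189.5, 209, 172, 192 and 182 CPM in the controls and 381, 285, 259.6 and 239 at high intensity, without overlap. Its log2 fold change was 0.62 ± 0.13 (edgeR adjusted p = 0.042) and 0.68 without replicate 3. Among genes outside the rule for naming, chosen after their values were seen, Serpinh1 (the collagen chaperone) was at 94.9, 123, 85.0, 77.2 and 92.7 CPM in the controls and 248, 242, 223 and 127 at high intensity. Pcolce (an enhancer of procollagen processing), Bgn (the proteoglycan biglycan) and Nid2 (the basement membrane protein nidogen-2) had log2 fold changes of 3.21, 2.82 and 1.83, and in each the groups did not overlap. Replicate 3 was far highest for Pcolce (10.1, 16.6, 40.1 and 4.41 CPM at high intensity) and Bgn (37.6, 43.4, 125 and 16.8), and leaving it out gave 2.44, 2.06 and 1.83.

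None of the 20 fitted collagen and matrix genes (21 in the list) was called by edgeR and 3 by DESeq2, while 14 had an unadjusted p under 0.05, all higher. Their median log2 fold change was 1.08 (1.19 without high-intensity replicate 3), 19 of 20 were above 0, and in 4 the high-intensity libraries lay wholly above the controls (2.07% of all genes). Sparc, a collagen-binding secreted protein, had the smallest p, with 237, 219, 201, 179 and 212 CPM in the controls and 498, 427, 414 and 286 at high intensity (log2 fold change 0.95 ± 0.23, edgeR adjusted p = 0.0538). Fn1 (fibronectin) had 1.05 ± 0.35 (edgeR adjusted p = 0.131) and Col1a1 (a chain of type I collagen) 1.68 ± 0.71 (edgeR adjusted p = 0.241). Summed over the list, the level was 2131, 3099, 1958, 2047 and 2052 CPM in the controls and 6422, 6143, 4442 and 2935 at high intensity. The lowest high-intensity library, replicate 6, lay below control replicate 2. In contrast to the cell cycle list, replicates 1 and 2 were highest here. Of the 20 integrins and laminins, Lamc1 was called, all 20 had a log2 fold change above 0, 11 had an unadjusted p under 0.05, and the median was 0.65 (0.61 without replicate 3). Itgb1, the integrin β1 chain shared by most matrix receptors, had 0.67 ± 0.18 (edgeR adjusted p = 0.0718).

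Markers of mesenchymal cells had mostly higher values in high-intensity replicates 1, 2 and 3, and in replicate 6 their sum lay within the control range. All 18 markers of fibroblasts and mesenchyme were fitted and none was at 0 in all 9 libraries. None was called by edgeR and 1 by DESeq2, 12 had an unadjusted p under 0.05 (all higher), 17 had a log2 fold change above 0, and the median was 1.09 (1.17 without replicate 3). The summed level was 1759, 2649, 1813, 1625 and 1682 CPM in the controls, 4772, 4701, 4076 and 2411 at high intensity and 3599.6, 6419, 1732, 2519 and 4802 at low intensity. High-intensity replicate 6 was lowest of its group both here and in the matrix list. The list shares 6 genes with the matrix list (Col1a1, Col1a2, Col3a1, Dcn, Lum and Fn1). The part of these markers in the matrix result was not tested. All 9 fitted markers of Schwann and neural crest cells (12 in the list) had a log2 fold change above 0, with a median of 1.13, and 5 had an unadjusted p under 0.05. None was called by edgeR and 1 by DESeq2. Of the muscle list, 8 of 20 were fitted, 3 had an unadjusted p under 0.05, and none was called by edgeR or DESeq2. Its median was 0.54 with all 4 high-intensity libraries and −0.42 without replicate 3. Des, an intermediate filament protein of muscle and mesenchyme, was at 9.78, 21.4, 8.46, 64.6 and 20.3 CPM in the controls and 149.8, 166, 107 and 14.1 at high intensity. Chrna1, a subunit of the muscle acetylcholine receptor, was at 0.252, 0, 6.54 and 0 at high intensity and 0 in every control.

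**Figure D3:**
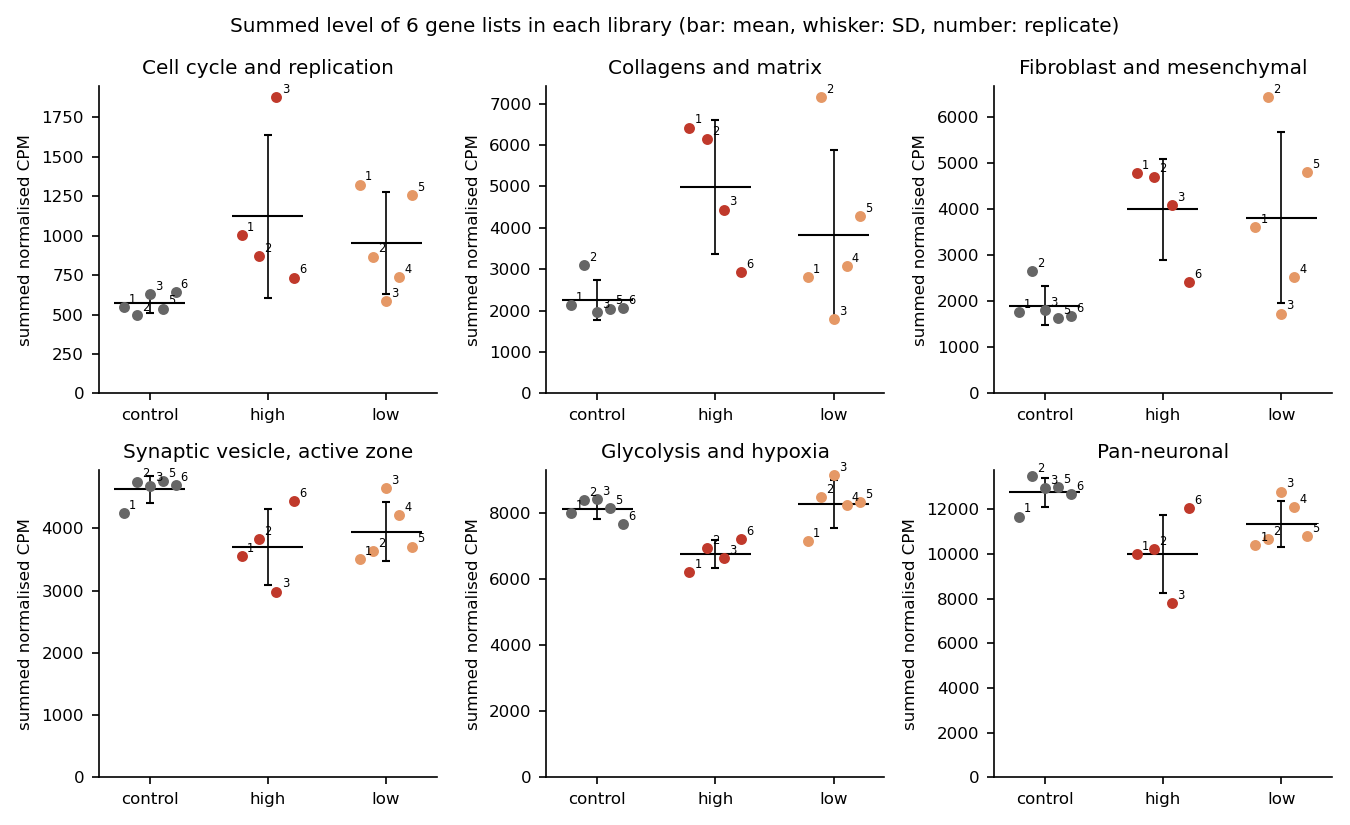
Summed normalised CPM (vertical axes, from 0) of 6 gene lists in each control, high-intensity and low-intensity library, with the replicate number beside each point, the mean as a bar and the SD as a whisker. The cell cycle and glycolysis sums do not overlap between high intensity and control, while the other 4 do through high-intensity replicate 6, which is nearest the controls in all 6 panels. The sign of the synaptic, pan-neuronal and glycolysis lists turns positive on the log2(TPM + 1) scale, where the median of all genes was 0.53.

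From the lists of YAP and TAZ genes and of the actin cytoskeleton, 2 genes were called. Tead1 (ENSMUSG00000055320), the DNA-binding partner of the co-activators YAP and TAZ, had the smallest p of all genes, at 57.8, 34.0, 46.9, 45.9 and 53.3 CPM in the controls and 125, 103, 101 and 82.1 at high intensity. All 4 high-intensity libraries lay above the controls, replicate 3 was not the highest, and the log2 fold change was 1.10 ± 0.19 (edgeR adjusted p = 0.0357), or 1.11 without replicate 3. Arhgef17, a guanine nucleotide exchange factor, was at 67.0, 47.3, 45.0, 54.8 and 55.6 CPM in the controls and 83.5, 83.1, 96.1 and 78.5 at high intensity, a log2 fold change of 0.66 ± 0.14. These were the 2 called genes among 15 fitted genes of the YAP and TAZ list (16 in all), of which 14 had a log2 fold change above 0 and 8 an unadjusted p under 0.05. The list's median was 0.67, and 0.60 without replicate 3. Among 16 genes of the actin cytoskeleton and its regulator SRF none was called by edgeR and 2 by DESeq2, 12 had an unadjusted p under 0.05 (all higher) and the median was 1.13, or 0.82 without replicate 3. Flna, which crosslinks actin, had 1.21 ± 0.31 (edgeR adjusted p = 0.0653), whereas Actg1, an actin of most cells, had −0.06 ± 0.09. Smtn (smoothelin, an actin-binding protein of contractile cells) was at 4.31, 3.50, 7.31, 9.36 and 5.80 CPM in the controls and 39.9, 20.7, 39.2 and 16.2 at high intensity, with a log2 fold change of 2.28 ± 0.45. Iqgap1, a scaffold that binds actin, had 1.03 ± 0.20, and high-intensity replicate 6 (178, 142, 216 and 94.8 CPM in replicate order) overlapped the controls (67.9, 96.0, 66.5, 73.0 and 82.0).

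Single genes of secretion and the cell surface were also called. Wls, the carrier that brings Wnt proteins to the cell surface, was at 26.2, 21.4, 23.5, 12.6 and 32.8 CPM in the controls and 51.5, 58.0, 68.3 and 39.4 at high intensity, a log2 fold change of 1.20 ± 0.23. Ntn1, the axon guidance cue netrin-1, was at 45.7, 17.2, 27.7, 23.4 and 47.5 CPM in the controls and 60.3, 77.8, 65.8 and 54.8 at high intensity. The groups did not overlap, the log2 fold change was 0.98 ± 0.22 (edgeR adjusted p = 0.0452), and it was 0.97 without replicate 3. In the static and actuated arrays the mean of Ntn1 was 84.7 ± 12.2 and 83.7 ± 18.3 CPM (SD), above the 64.7 at high intensity. The controls, with a mean of 32.3, were thus the lowest of the 5 groups, and the cause was not tested. Ntn1 was the 1 called gene in the list of 20 guidance ligands, whose median was 0.03. The semaphorin Sema3b, given below, was also called but is not in that list. Anxa3, a calcium-dependent membrane-binding annexin, was at 0.288, 1.05, 0, 1.87 and 5.22 CPM in the controls, highest in replicate 6, and at 29.0, 22.7, 60.9 and 7.71 at high intensity, a log2 fold change of 4.07 ± 0.80, or 3.48 without replicate 3. It was the 1 called gene among 16 fitted annexins and S100 genes, of which 15 were above 0, with a median of 0.81 (0.53 without replicate 3). Cdh1, the epithelial cadherin, was at 1.73, 0, 0.385, 0.468 and 2.03 CPM in the controls and 16.1, 7.70, 7.77 and 2.48 at high intensity. It was the 1 called gene of 9 fitted surface epithelium markers, and the keratins Krt8 and Krt18 had 0.28 ± 0.77 and 1.14 ± 0.70. Tmbim1, a membrane protein of endosomes and lysosomes, was at 4.03, 0, 1.92, 0.936 and 3.48 CPM in the controls and 10.8, 8.92, 22.1 and 6.06 at high intensity, and Otud7b, a deubiquitinase, rose from 21.8 ± 3.78 to 47.3 ± 15.8 CPM. Their log2 fold changes were 2.45 and 1.12, or 1.99 and 0.87 without replicate 3. Neat1, the long non-coding RNA that builds paraspeckles, was at 9.20, 34.7, 14.6, 7.95 and 22.6 CPM in the controls and 246, 30.4, 193 and 47.4 at high intensity. Replicates 1 and 3 were far above the controls and replicate 2 within their range. Of 12 fitted neurotrophic ligands 1, the growth factor Igf2, had an unadjusted p under 0.05 and none was called by edgeR (1 by DESeq2). Igf2 was at 104, 51.2, 46.5, 46.3 and 51.3 CPM in the controls and 124, 571, 65.4 and 105 at high intensity (log2 fold change 1.84 ± 0.45, edgeR adjusted p = 0.0541), with replicate 2 far above the other 3 and with overlap between the groups.

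Several of the 23 lower genes are known from neurons, and their log2 fold changes were mostly under 1 in size. Sncb (ENSMUSG00000034891), β-synuclein of presynaptic terminals, was at 256, 353, 296, 287 and 273 CPM in the controls and 171, 169, 162 and 208 at high intensity. The groups did not overlap, replicate 3 was close to replicates 1 and 2, and the log2 fold change was −0.72 ± 0.14 (edgeR adjusted p = 0.0357), or −0.68 without replicate 3. Cplx1 (ENSMUSG00000033615), complexin-1, which clamps and speeds vesicle fusion, was at 372, 446, 399.5, 378 and 394 CPM in the controls and 244, 303, 201 and 295 at high intensity, without overlap (log2 fold change −0.61 ± 0.14, edgeR adjusted p = 0.0435). Stmn3, a microtubule-destabilising stathmin of neurons, was at 313, 372, 382, 347 and 346 CPM and 264, 236, 215 and 284, and Map7d2, a microtubule-binding protein, at 339, 579, 474, 329 and 324 and 233, 186, 195 and 280.4, control first in each pair. Both fell, by 0.49 and 0.87 on the log2 scale. Aplp1, an amyloid precursor-like protein of neurons, fell by 0.49, from 416 ± 18.6 to 295 ± 45.1 CPM. Chga (chromogranin A of dense-core vesicles) and Gpm6a (a membrane glycoprotein of neurites), outside the rule for naming and chosen after their values were seen, had −0.59 ± 0.13 and −0.47 ± 0.11.

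Other lower genes within the rule were Tchh (trichohyalin), at 74.4 ± 22.5 and 35.8 ± 2.71 CPM in control and high intensity, and Tbc1d16, a Rab GTPase-activating protein, at 99.6 ± 4.23 and 64.7 ± 12.1. A further 3 are pseudogenes, whose reads can come from near-identical copies. Gm2223 was at 83.4 ± 10.2 and 48.8 ± 12.1 CPM. Ywhaq-ps3 had 203 counts in the controls, where replicate 3 had 0, and 0 in the 4 high-intensity libraries, at least 58.3-fold lower against 3 counts over the group. Gm13772 had 126 and 3 counts, a ratio of control to high intensity of 36.2 (95% interval 12.1 to 177.8, counting error only). Control replicate 3 held 65 of the 126 and control replicate 2 none, so the groups overlapped, and without control replicate 3 the ratio was 21.3 (6.97 to 106.3). Of the genes called higher with 3 or fewer counts in the controls, both outside the rule for naming, Gm20605 had 0 counts in the controls and 58 at high intensity (at least 22.4-fold higher). Olfml2a had 2 and 95, a ratio of 55.1 (14.9 to 461.9), and high-intensity replicate 1 had none of them while replicate 6 had 79. Without replicate 6 the ratio was 13.1 (3.08 to 117.3).

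A further 22 called genes lie outside the rule for naming, and those given here were chosen after their values were seen. Adgra2, a receptor that takes part in Wnt7 signalling, was at 0.863, 8.41, 2.31, 5.62 and 2.32 CPM in the controls and 21.2, 28.4, 40.9 and 7.16 at high intensity. Replicate 6 was within the control range and the other 3 were above it. Dock5, an activator of Rac, was at 8.91, 6.66, 3.08, 10.8 and 15.1 and 29.0, 17.8, 50.3 and 20.1 CPM, control first, and Peak1, a kinase-like scaffold of focal adhesions, at 59.2, 63.1, 61.5, 55.7 and 44.6 and 97.4, 92.8, 161 and 69.2. In both the groups did not overlap, and replicate 3 was highest. The log2 fold changes were 1.70 and 0.88, or 1.32 and 0.61 without that library, and for Adgra2 2.66 and 2.29. Sema3b, a secreted semaphorin that repels axons, was at 0.575, 0.701, 0.769, 2.81 and 2.90 CPM in the controls and 4.54, 11.8, 6.54 and 7.44 at high intensity. Mob1a, a Hippo pathway adaptor, had 0.91 ± 0.20 on the log2 scale and Iqgap2, a relative of Iqgap1, 1.38 ± 0.31. Of those lower, Mgarp, a mitochondrial protein, was at 5.75, 13.7, 3.08, 6.55 and 6.67 CPM in the controls and 1.51, 1.22, 1.64 and 1.38 at high intensity. Synm, the intermediate filament protein synemin, was at 92.6, 81.7, 95.4, 84.7 and 74.2 and 74.2, 51.5, 43.7 and 52.3 CPM, where replicate 1 nearly reached the lowest control. Hip1r, which links clathrin coats to actin, Atcay (caytaxin, a neuronal protein) and Sphkap, an anchor of protein kinase A, had −0.74 ± 0.17, −0.54 ± 0.12 and −0.85 ± 0.19.

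Of 22 synaptic vesicle and active zone genes, Cplx1 was called, 21 had a log2 fold change below 0 (49.7% of all genes did), 11 had an unadjusted p under 0.05 in that direction (7.28% of all genes), and the median was −0.33, or −0.22 without replicate 3. All 16 pan-neuronal genes had a log2 fold change below 0, 10 with an unadjusted p under 0.05, and none was called by edgeR (1 by DESeq2). Their median was −0.31, or −0.22 without replicate 3. Nefm, a neurofilament subunit, had −0.72 ± 0.22 (edgeR adjusted p = 0.104) and Stmn2, another stathmin, −0.42 ± 0.13 (edgeR adjusted p = 0.116). The summed pan-neuronal level was 11675, 13478, 12959, 12990.1 and 12677 CPM in the controls and 10006, 10215, 7794 and 12056 at high intensity, where replicate 3 was lowest and replicate 6 lay within the control range. The synaptic sum was 4243, 4752, 4689, 4759 and 4699 and 3553, 3834, 2986 and 4440.3, in the same order of libraries. These medians turned positive on the log2(TPM + 1) scale (0.29 for the synaptic and 0.26 for the pan-neuronal list), on which the median of all genes was itself 0.53. On that scale after 2 copies of 7SL RNA, rRNA and mitochondrial genes were removed they were −0.11 and −0.14, with 0.21 over all genes. Of 20 ion channels 18 had a log2 fold change below 0 (median −0.27), and of 21 fitted transmitter receptors 16 (median −0.22), with 3 and 6 at an unadjusted p under 0.05 and none called in either list by edgeR or DESeq2.

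The 12 fitted genes of motor neuron identity (16 in the list) had a median log2 fold change of −0.04, with 4 above and 8 below 0, 1 at an unadjusted p under 0.05 and none called by edgeR or DESeq2. Without replicate 3 the median was 0.04. Foxp1 had 0.00 ± 0.13 and Onecut2 −0.10 ± 0.22. Of 8 fitted cholinergic genes none was called by edgeR or DESeq2 or had an unadjusted p under 0.05 (0 of 8), while 6 lay below 0 with a median of −0.22, about that of the transmitter receptors. Slc18a3, which loads acetylcholine into vesicles, had −0.30 ± 0.17 (edgeR adjusted p = 0.387). Astrocyte and neural progenitor lists had medians of 0.01 and −0.01. Gfap, an intermediate filament of astrocytes, had 0.08 ± 0.16, and Nes, of progenitors, 1.04 ± 0.35 (edgeR adjusted p = 0.134). No gene of the immediate early, NF-κB, interferon, heat shock or unfolded protein lists was called by edgeR, and 1 of the last by DESeq2. Their medians were 0.27, 0.37, 0.07, 0.07 and −0.11, with 2 of 20, 3 of 13, 2 of 11, 3 of 14 and 2 of 18 members at an unadjusted p under 0.05 in either direction. Without replicate 3 these medians were 0.08, 0.22, −0.02, −0.003 and −0.19.

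The lists given next held no called gene by edgeR either. Targets of hedgehog signalling, whose activator was in the differentiation medium, had a median of 0.52 over 12 fitted genes with 3 at an unadjusted p under 0.05, all higher, and none called by DESeq2. Targets of TGF-β and BMP had 0.59 over 16 genes with 4 such members (1 called by DESeq2), and genes of the Notch pathway 0.22 over 16 with 3 higher and 1 lower (3 called by DESeq2). Endoderm markers had 0.95 over the 5 fitted of 12 at high intensity and −0.02 at low intensity. At high intensity 3 were higher at an unadjusted p under 0.05 and 1 was called by DESeq2. The endoderm list shares Sparc, given above, with the matrix list. Spinal interneuron factors had −0.34 over 13, with 3 lower at an unadjusted p under 0.05 and 0 called by DESeq2. NRF2 targets of the oxidative stress response had 0.26 over 19 genes, with 6 higher and 1 lower at an unadjusted p under 0.05 (1 called by DESeq2). Without high-intensity replicate 3 the NRF2 median was 0.12, with 3 members at an unadjusted p under 0.05. The hedgehog, TGF-β and BMP, and Notch medians were then 0.56, 0.60 and 0.25. Cytosolic ribosomal protein genes had 0.02 over 28 and cholesterol synthesis genes 0.00 over 20, near the median of all genes.

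**Figure D4:**
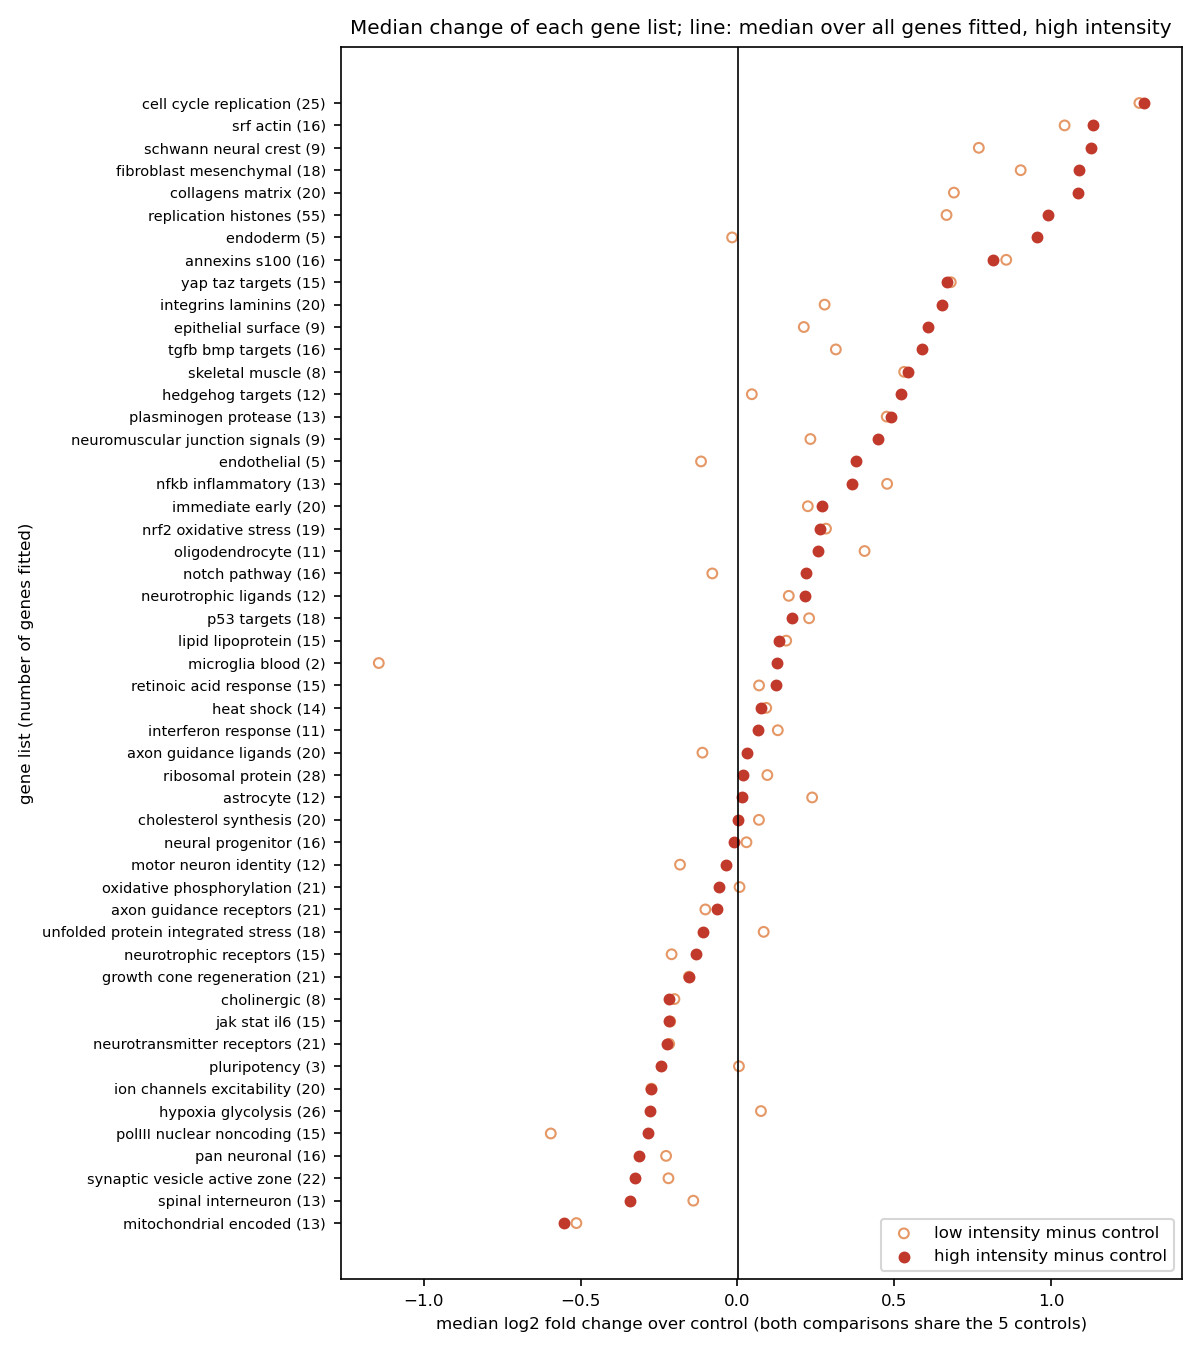
Median log2 fold change over control (horizontal axis) of each gene list (vertical axis, with the number of genes fitted) at high intensity (filled) and low intensity (open), which share the 5 controls; the line is the median of all genes at high intensity. Cell cycle, actin, neural crest and mesenchymal lists lie near 1 or above, and pan-neuronal, synaptic, ion channel and spinal interneuron lists near −0.3. The sign of the latter turns positive on the log2(TPM + 1) scale, where the median of all genes was 0.53. The motor neuron identity list lies at −0.04 and the cholinergic list at −0.22.

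Genes of glycolysis and the hypoxia response had lower values at high intensity, with little spread between libraries. None of 26 fitted members (27 in the list) was called by edgeR and 5 by DESeq2, and the smallest adjusted p was 0.0631, of Aldoa. Yet 23 had a log2 fold change below 0, 13 of them with an unadjusted p under 0.05, and in 9 every high-intensity library lay below every control (1.49% of all genes). Aldoa, the aldolase of glycolysis, was at 652, 754, 679.9, 667 and 632 CPM in the controls and 470.4, 563, 506 and 554 at high intensity, a log2 fold change of −0.37 ± 0.09. Gapdh, the next enzyme but one in the pathway, was at 974, 952, 1027, 1032 and 914 and 684, 875, 842 and 837 CPM (edgeR adjusted p = 0.142). Eno1 and Pkm, which act further down, had −0.18 ± 0.09 and −0.16 ± 0.11. The list's median was −0.28 and −0.26 without replicate 3; on the log2(TPM + 1) scale it was 0.33, where that of all genes was 0.53. The summed level was 8004, 8393, 8411, 8145 and 7665 CPM in the controls, 6221, 6931, 6625 and 7219 at high intensity and 7138, 8486, 9154, 8239.9 and 8325 at low intensity. Every high-intensity library lay below every control, and 4 of the 5 low-intensity libraries lay above every high-intensity library. Tested against low intensity directly, 17 of the 26 genes had an unadjusted p under 0.05, all lower at high intensity (4.06% of all genes were), and none passed adjustment (smallest adjusted p = 0.14, edgeR). The list's median at low intensity against control was 0.07.

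Mitochondrially encoded transcripts of oxidative phosphorylation had lower values in high-intensity replicates 2 and 6 and values within the control range in replicates 1 and 3. Of 13 genes 11 had a log2 fold change below 0 and 7 an unadjusted p under 0.05, with a median of −0.55 (−0.63 without replicate 3) and none called by edgeR or DESeq2. On the log2(TPM + 1) scale the median was 0.00. mt-Co1, a subunit of cytochrome oxidase, had −0.78 ± 0.25 (edgeR adjusted p = 0.126). Mitochondrially encoded genes took 15.0% ± 2.53 (SD, n = 5) of counts in the controls and 11.6% ± 3.06 (n = 4) at high intensity, an exact permutation p of 0.127. The nuclear genes of oxidative phosphorylation had a median of −0.06 over 21 fitted genes, with 3 at an unadjusted p under 0.05, all lower. Protein-coding genes took 74.5% ± 2.21 of counts in the controls and 80.1% ± 4.47 at high intensity (two-sided exact permutation p = 0.0476, 0.19 after Benjamini-Hochberg adjustment over 6 classes). Small RNA genes took 5.83% ± 2.76 and 2.86% ± 1.70 (exact permutation p = 0.0794). With 4 against 5 libraries the smallest p this test can give is 0.0159, and no class passed adjustment. The part of these shares in the gene results was not tested; without mitochondrial and rRNA genes 77 genes were called.

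No gene differed between high and low intensity by edgeR at an adjusted p under 0.05 (1131 of 14730 at an unadjusted p under 0.05, 4.06% lower and 3.62% higher at high intensity). DESeq2 called 40 and limma with quality weights 0. Nothing called against the controls is therefore shown to belong to high intensity alone. The low-intensity libraries were tested against the same 5 controls, with 88 genes called (0.597%), 65 higher (0.441%) and 23 lower (0.156%), so the 2 comparisons share their controls and their values are only set side by side. On the log2 scale Anxa3 differed from the control by 4.07 ± 0.80 at high and 4.45 ± 0.78 at low intensity, Smtn 2.28 and 2.11, and Ntn1 0.98 and 1.07. Mki67 had 1.31 ± 0.26 and 0.66 ± 0.25, while Top2a had 1.30 and 1.28. The matrix genes Bgn and Nid2, picked after their values were seen, had 2.82 and 1.83 at high and 0.81 ± 0.62 and 0.46 ± 0.40 at low intensity. The unadjusted p of the difference between intensities was 0.00294 for Bgn and 0.00209 for Nid2, and the adjusted p 0.383 and 0.353 (edgeR). Among lower genes Sncb had −0.72 ± 0.14 and −0.29 ± 0.13, Cplx1 −0.61 and −0.21, and Tchh −1.05 and −0.23. Other lower genes, picked after their values were seen, had nearly equal values, with −0.54 and −0.50 for Atcay, −0.85 and −0.77 for Sphkap and −0.67 and −0.57 for Psd2. For Tchh the edgeR p of the difference was 0.000701 unadjusted and 0.246 adjusted.

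**Figure D5:**
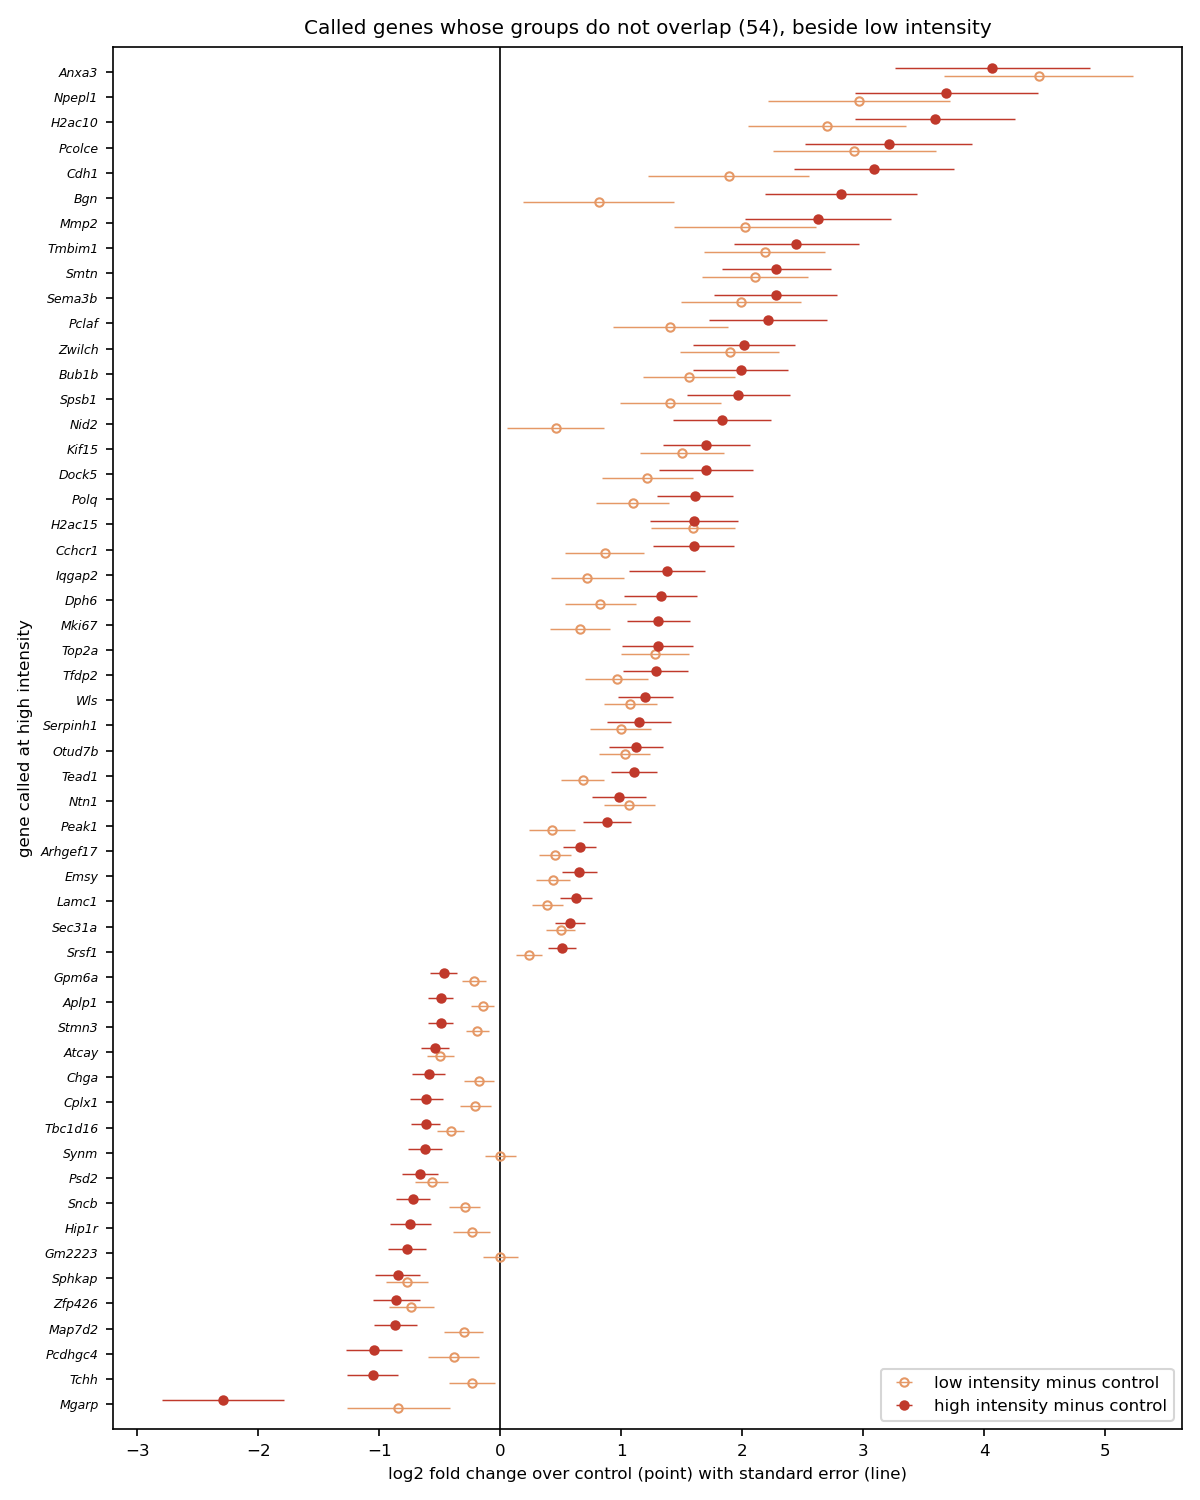
Log2 fold change over control (horizontal axis, points) with its standard error (lines) for the called genes whose high-intensity and control libraries did not overlap and that had over 3 counts in both groups (vertical axis), at high intensity (filled) and low intensity (open). Both share the 5 controls; Anxa3 is at 4.07 and 4.45, and Bgn at 2.82 and 0.81.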

How the data were processed

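Total RNA of motor neuron spheroids was sequenced from 4 ng inputs (8 unnamed samples of lowest concentration at full volume) with rRNA-derived fragments cleaved after 5 PCR cycles and 15 more cycles after that, as paired reads of 50 bases, per the labels' protocols; no molecular identifiers are mentioned. The authors deposited expected counts (estimated counts per gene, written as whole numbers, not scaled for depth) and TPM (transcripts scaled to a fixed total per library) for 56941 Ensembl mouse genes. BWA 0.7.12-r1039, bedtools 2.25.0, STAR and Salmon and the builds mm10, hg19 and GRCm39 are named in the submitters' processing notes, with no role. Whether reads were counted by strand is not stated, so overlapping genes and pseudogenes are uncertain. All deposited value columns belong to samples of the series (0 left unused).

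Counts were rounded and fitted in edgeR 4.0.16 (R 4.3.3): 21 libraries with at least 1000000 protein-coding counts, 5 groups in 1 model, filterByExpr (14730 genes), TMM, quasi-likelihood F-test, Benjamini-Hochberg adjustment per comparison at 0.05. Normalised CPM are counts scaled to 1000000 of TMM-adjusted library size, ± is SD for levels and SE for log2 fold changes. Shares of counts were compared by exact permutation tests (scipy 1.17.1). The smallest chi-square per degree of freedom among the 36 pairs of the 9 libraries was 8.84, well above counting noise. Separate amplifications of 1 RNA could exceed that noise too, so this cannot show that the libraries are separate samples. All 9 were counted as such. Named are the 16 higher and 10 lower called genes of smallest p with at least 5 CPM in the higher group, every called gene in a list, and per list up to 3 uncalled members of highest level and 1 of smallest p, with Mnx1, Isl1, Chat and Xist; some of these are not reported here. The comparison, the 51 gene lists (942 entries) and this rule were chosen with earlier results of these data known. Alternatives were DESeq2 1.42.0 and its size factors, limma 3.58.1 (voom with quality weights, and log2(TPM + 1) and log2(TPM + 0.1)), other filters, thresholds and sets of libraries, a replicate block, thinning to 1551334 counts and leaving out each library. A fit of TPM rescaled without 2 copies of 7SL RNA, rRNA and mitochondrial genes, and ratios of low-count genes without the library holding most counts, were added after seeing the data. The fit was tested on simulated data.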

Additional observations from a re-analysis of the deposited data

Results flagged for a closer look

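In groups of 4 or 5 libraries, 1 library lay far from its group in 10 of 86 checks of named genes and composition. The limit used gives about 1 in 20 by chance for independent, normally distributed values. Low counts of genes called on these same libraries need not be either, so that rate cannot be set against the 10 of 86. High-intensity replicate 3 had 29.8 normalised CPM of H2ac10 (the other 3 had 9.73 to 13.1), 70.7 of Otud7b (36.9 to 42.6), 272 of Top2a (92.8 to 119) and 264.5 of Xist (0 to 4.46). High-intensity replicate 1 had 0.757 CPM of Gm13772 (0 in the others), which is 3 counts, and 3.45% of its counts on lncRNA genes (1.98% to 2.18% in the others). In the controls, replicate 2 had 4.21 CPM of H2ac10 (0 to 1.16 in the others) and 2.21% of its counts on lncRNA genes (1.85% to 1.92%). Control replicate 5 had 92.2 CPM of Tbc1d16 (100.4 to 102.7 in the others) and 5.15 of Xist (0 to 0.29).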

How the results depend on the processing

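The number of genes called between high intensity and control (68) was 700 with no low-count filter, 467 by DESeq2, 129 with protein-coding genes only, 17 with the 9 libraries alone, 6 with all 26 libraries, 0 by limma voom with quality weights (1524 at an unadjusted p under 0.05), 2324 on log2(TPM + 1) and 2292 on log2(TPM + 0.1), where the median gene was shifted by 0.53. At an adjusted p under 0.01 it was 0 and under 0.1 it was 294. Leaving out 1 library gave 0 to 397. Beside the libraries named above, the count fell to 1 without high-intensity replicate 2, 2 without control replicate 3 or 5, 18 without control replicate 2, 1 without static-array replicate 2, and 17 and 16 without actuated-array replicates 2 and 4. It rose to 107 when low-intensity replicate 3, and to 125 when control replicate 6, was left out. The 17 genes of the 9-library fit were all higher, and 9 of the 68 were among them. Of the TPM calls 2315 and 2280 were higher. DESeq2 size factors (74), a CPM filter (69), thinning (82) and rescaled TPM (93, of which 88 higher) stayed within 1.5 times in number. The genes were not all the same: 68, 66, 47 and 22 of the 68 were still called, in that order.

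The replicate numbers did not pair the samples: deviations of same-numbered libraries correlated at −0.0388 to −0.0183, and the labels say nothing of a shared batch. With the replicate block 1 gene was called between high intensity and control, 6 with the 9 libraries alone and the block, and 3 between high and low intensity. In both of the fits against control, 0 of the 68 genes were among those called. Between high and low intensity, 0 genes were called in the fit reported, 126 with no low-count filter, 40 by DESeq2, 2 on log2(TPM + 1), 1 on log2(TPM + 0.1), 3 on rescaled TPM and 10 at an adjusted p under 0.1. Leaving out 1 library gave 0 to 3.

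For single genes named by the rule, 686 values under the alternatives kept direction and side of the threshold, 552 kept direction but no longer passed it, and 8 reversed. The direction reversed for Tmbim1 (−0.28) and Gm13772 (0.86) with all 26 libraries, and on log2(TPM + 1) and log2(TPM + 0.1) for Tbc1d16 (0.012 and 0.0088), Aplp1 (0.32 and 0.32) and Stmn3 (0.11 and 0.11), all below the shift of the median gene. Over all 68 called genes, 61 kept their sign on either TPM scale. Of genes called lower outside the rule, Atcay had a mean TPM of 38.5 in the controls and 40.3 at high intensity. Chga had 162 and 167, Gpm6a 101 and 115, and Hip1r 33.7 and 29.6. With all 6 libraries of each group, the difference in share of counts was −11.2 percentage points for rRNA genes and 0.275 for pseudogenes. Control replicate 4, set aside in the main fit, had 75.6% of its counts on the rRNA gene Rn18s-rs5. In the controls kept, all rRNA genes together took 0.668% to 2.23%. Causes of these changes were not tested. Depth limits the ratios of genes at or below about 1 CPM in a group, such as Gm20605 and Olfml2a in the controls (means of 0 and 0.116 CPM).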
